A study of Homo sapiens with 10 samples.

Results

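The genes described here are regulators of alternative splicing in H1 cells, a human embryonic stem cell line, as they were differentiated towards liver. They were chosen by name, as every row of the expression table that begins with HNRNP, SRSF, ESRP, RBFOX, MBNL, CELF, PTBP or NOVA (with a number where the family has one) or is QKI, RBM47, TRA2A or TRA2B. The rule found 50 of the 12125 genes. Among them were 19 hnRNP genes, 13 SR and SR-like genes, 3 epithelial factors (ESRP1, ESRP2 and RBM47), 3 MBNL genes and 3 PTBP genes. There were also 2 CELF, 2 NOVA and 2 RBFOX genes and QKI. The last 2, HNRNPU-AS1 and NOVA1-AS1, are antisense RNAs by name, do not encode splicing proteins but match the name rule. RNA of whole cultures was measured over 21 days, and each of the 10 days sampled gave a single library. Day 0 was untreated H1 cells. Days 1, 2 and 3 had Activin A at 100 ng per ml and are labelled as presumed endoderm, days 5 and 7 had FGF4 at 30 and BMP2 at 20 ng per ml and days 9 and 11 had HGF and KGF at 20 ng per ml, all labelled as hepatoblast, and day 21 had Oncostatin M at 20 ng per ml. Day 13 is labelled with Oncostatin M as well, but in the treatment scheme it closes the step with HGF and KGF, and both late days are labelled as hepatocyte-like. All libraries come from 1 cell line, and no undifferentiated culture of a later day was analysed here, so treatment and time in culture cannot be told apart.

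Splicing factors bind short RNA elements in and beside exons and raise or lower the use of the exon in mature mRNA. SR proteins mostly promote exon inclusion and hnRNP proteins often oppose it, and both kinds are made at high levels in most dividing cells. Against this general machinery stand factors restricted to some cell types. ESRP1, ESRP2 and RBM47 favour the exon choices of epithelial cells, QKI, RBFOX2 and the MBNL proteins favour those of mesenchymal or differentiated cells, and NOVA1, NOVA2 and RBFOX3 are factors of neurons. The passage of cells between epithelial and mesenchymal form, which the study followed, is known to be accompanied by such a change in exon choice.

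The values are GC-normalized scores in whole numbers and act like ranks. The medians of all libraries were 81 or 82, the maximum of 18734 was held by 10 genes in every library, and the scores of 2164 or more fell into 10 narrow bands, with gaps of at least 50 between bands, that the libraries share. The depth of a library cannot be read from such values. A gene called higher or lower below differed by at least 1 in log2(score + 1), about 2-fold, between 2 libraries, and had a score of at least 50 in at least 1 of them. With 1 library per day no difference has a replicate check and no p-value is given. Days 9 and 11 had the same medium, and their difference serves as a measure of how much libraries vary. It also holds any change in the cells between those days. Of 44 splicing regulators tested between them, 0 were higher and 0 lower, against 1.04% and 0.568% of all genes tested. The standard deviation of the log2 difference between these days, over the 500 genes nearest in score, was 0.51 at a score of 50, 0.33 at 100, 0.28 at 500 and 0.26 at 1000. The gene with the largest difference between these days among the members was MBNL2, at 0.98. Scores of marker genes were compared with the labels. The 5 pluripotency markers had a median log2(score + 1) of 11.25 in the library of day 0 and 2.58 in that of day 21, and the 5 hepatic markers of 2.32 and 14.19. The 4 endoderm markers had medians of 1.58, 9.24 and 5.75 on days 0, 3 and 21. Of these SOX17 had scores of 2, 790 and 4 on these days and GATA6 of 2, 642 and 142. FOXA2 had scores of 0, 190 and 48 and CXCR4 of 5, 568 and 58. Markers of other cells also moved late in the course.

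Splicing regulators more often had lower than higher scores in the hepatocyte-like cells of day 21. Of 46 members tested between day 0 and day 21, 23 were lower, or 50%, against 26.4% of all 9698 genes tested, and 3 were higher, or 6.52%, against 23.9%. The 3 that rose were MBNL1, MBNL2 and MBNL3. Of the 23 that fell, 11 were hnRNP genes, 6 SR or SR-like genes, 2 PTBP genes and 2 NOVA genes, beside ESRP1 and HNRNPU-AS1. In bulk RNA fewer cells of a type and less RNA per cell cannot be told apart. The median log2 difference was -0.94 over the members tested and -0.11 over all genes tested. Genes of high score fell somewhat more often as a whole. Among the 942 genes whose mean score was at least 442, the median of the members, 31.1% were lower and 24.6% higher at day 21, whereas of the 25 members in this range 15 were lower and 0 higher. When libraries were rescaled by the median of their ratios, which shifted the log2 difference of these days by a median of 0.19 over all genes, 19 members were lower and 4 higher, with SRSF5 as the added gene. The 4 members with scores under 50 in every library were HNRNPA1L2, SRSF12, RBFOX3 and NOVA1-AS1. The antisense RNAs and HNRNPA1L2, an intronless copy of HNRNPA1, were kept in these counts, and without them 22 members were lower and 3 higher.

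**Figure D1:**
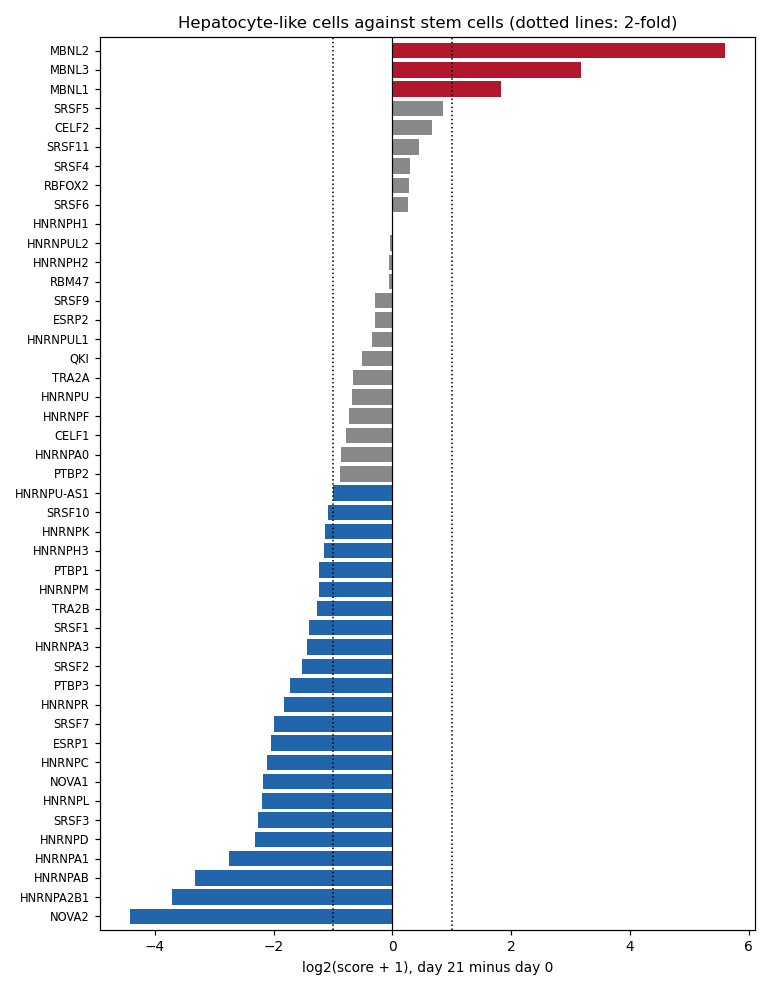
Each bar is the difference of log2(score + 1) between day 21 and day 0 of 1 gene, for the 46 members with a score of at least 50 on either day, each day being 1 library. Blue bars are at least 2-fold lower (23 genes), red bars at least 2-fold higher (3 genes, all MBNL) and grey bars are neither.

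Within single intervals the share of members called lower stood closer to that of all genes. From day 0 to day 3, 5 of 45 members were lower and 2 higher, against 9.07% and 11.1% of all genes tested. From day 3 to day 13, 10 of 45 were lower and 3 higher, against 15.9% and 16.5%, and from day 13 to day 21, 5 of 44 were lower and 0 higher, against 9.08% and 8.57%. These comparisons share libraries and are not independent of each other. The median log2 difference of the members was -0.10, -0.38 and -0.29 in the 3 intervals, and that of all genes tested was -0.06, -0.08 and -0.05. Of the 50 members, 17 had their highest score at day 1 and 14 at day 0, and 27 had their lowest at day 21. On the first day of Activin A, 30 members had a higher score than at day 0 and 17 a lower one, with a median log2 difference of 0.11 over the 50 members and 0 over all genes.

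**Figure D2:**
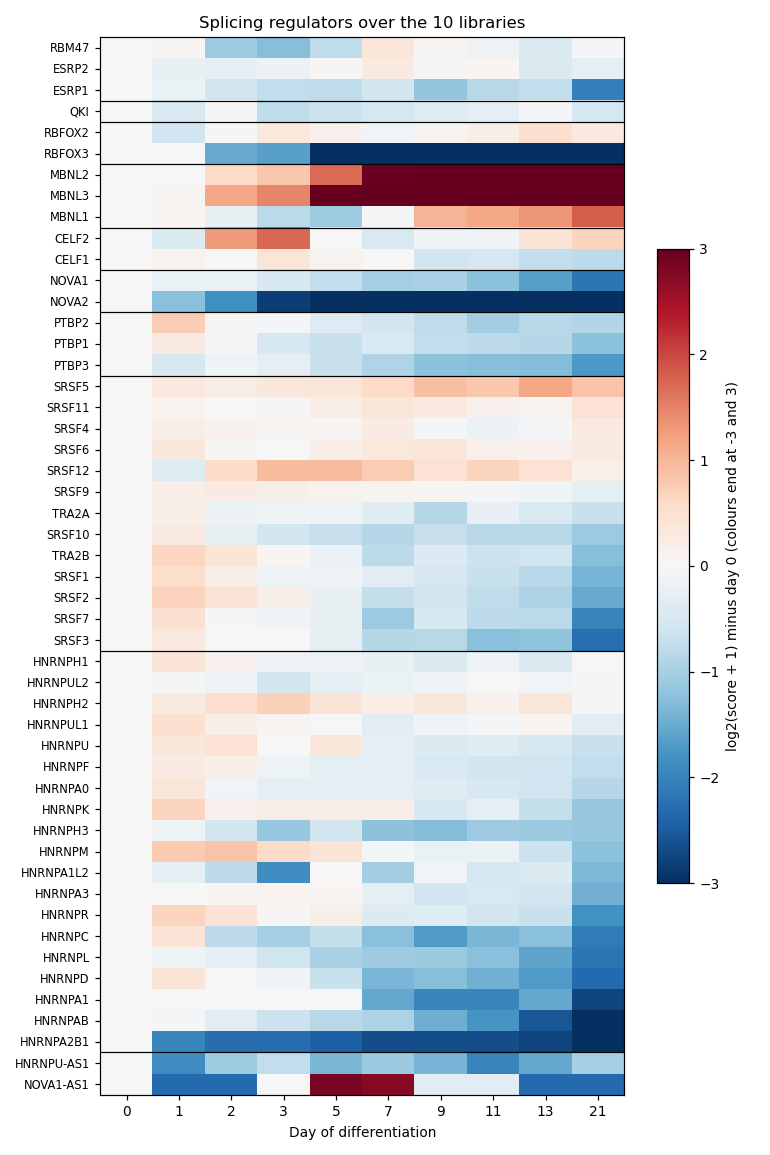
Each row is 1 of the 50 members and each column 1 library, coloured by log2(score + 1) minus that of day 0, with rows grouped by family and ordered by the value at day 21. The MBNL rows are red from day 9 on, most hnRNP rows turn blue by day 21, and CELF2 is red on days 2 and 3.

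ESRP1 and ESRP2, paralogous proteins that promote epithelial exons of genes such as FGFR2 and CD44, had different courses. ESRP1 had scores of 424, 372, 289 and 254 on days 0, 1, 2 and 3, then 251, 288, 190, 239 and 255 on days 5, 7, 9, 11 and 13, and 102 at day 21. Its score was highest in the stem cells and lowest in the hepatocyte-like cells. The log2 difference from day 0 to day 3 was -0.74, under the 2-fold limit, that from day 3 to day 13 was 0.01, and that from day 13 to day 21 was -1.31, so that ESRP1 was called lower over the last interval. ESRP2 had scores of 182, 155, 154, 160, 186, 218, 178, 189, 134 and 148 in the order of the days. It was called neither higher nor lower in any comparison, and its log2 difference from day 0 to day 21 was -0.30.

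RBM47, an RNA-binding protein of epithelia that also serves as a cofactor in the editing of APOB mRNA, dipped and came back. Its scores were 240 and 249 on days 0 and 1, 112 and 98 on days 2 and 3, 142 at day 5, 308 and 254 on days 7 and 9, and 216, 178 and 230 on days 11, 13 and 21. The log2 difference from day 0 to day 3 was -1.28, and RBM47 was lower by this rule. Of the epithelial factors RBM47 alone passed 2-fold in that interval, but its difference from ESRP1 and ESRP2 has no test. By day 21 its score differed from that of day 0 by -0.06 on the log2 scale. CDH1, the epithelial cadherin, had scores of 697, 342, 407 and 1089 on days 0, 3, 13 and 21. The scores of CDH1 and RBM47 were thus lower on day 3 than on day 0, whereas over the last interval the score of CDH1 was 1.42 higher on the log2 scale and that of ESRP1 was lower. Over the 10 libraries the Pearson correlation with CDH1 was -0.10 for ESRP1, -0.36 for ESRP2 and 0.17 for RBM47, a description of successive days of 1 cell line. Of the other epithelial markers EPCAM had scores of 372, 642, 790 and 704 and KRT19 of 266, 936, 1734 and 1157 on days 0, 3, 13 and 21. KRT8 had 1438, 3864, 18734 and 2024 and KRT18 had 2020, 2796, 4855 and 1248 on these days, so that of the 5 epithelial markers 1 was higher (CDH1) and 2 were lower (KRT8 and KRT18) over the last interval. The part of epithelial cell content in the courses of ESRP1 and RBM47 was not tested.

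The table places RBM47 at 40425284 to 40516775 of chromosome 4, minus strand. It does not name the build of its coordinates (the submitters' processing notes list hg19 and mm10). In the RefSeq promoter windows for GRCh38.p14, 4 starts of RBM47 were found, and ESRP1, ESRP2 and QKI were not among the entries. The E-box CAGGTG, to which SNAI and ZEB repressors bind, was searched on both strands in the 250 bases before each start. It was in 1 of the 4 windows of RBM47, in 7 of 89 windows of the 41 members found (7.87%) in 15.4% of the 12979 windows of genes of the table and in 17.5% of all 35116 windows. The part of that RBM47 window that lies outside annotated exons, chr4:40514759-40514831 on the minus strand of GRCh38.p14, is shown because RBM47 was the epithelial factor called lower at day 3, with the E-box, which reads CACCTG on this strand, in capitals. The box begins at position -208, counted from -1 for the base before the start site. A match is not evidence of binding.
RBM47: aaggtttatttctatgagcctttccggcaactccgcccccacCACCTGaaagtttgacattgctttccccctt

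The stem-cell factors were all lower by day 21. PTBP1, HNRNPA1 and HNRNPA2B1 are repressors of exon inclusion that favour the embryonic form of pyruvate kinase mRNA, and SRSF2 and SRSF3 are SR proteins linked to pluripotency and proliferation. All 5 fell from day 0 to day 21, with log2 differences from -1.24 (PTBP1) to -3.71 (HNRNPA2B1) and a median of -2.27. A fall was not particular to this class. Lower between these days were 26.4% of all genes tested, 50% of the members and 57.4% of core spliceosome genes. PTBP1 had scores of 1554, 1886, 1490, 1107, 980, 1130, 934, 901, 852 and 659 in the order of the days. Its highest score was at day 1 and its lowest at day 21. SRSF3 had scores of 1130, 1384, 1130, 1130, 918, 628, 634, 474, 492 and 234, and SRSF2 of 756, 1214, 1000, 853, 650, 462, 512, 444, 388 and 264. For both genes every score from day 5 on was below that of day 0. In SRSF3 the log2 difference was 0 from day 0 to day 3, -1.20 from day 3 to day 13 and -1.07 from day 13 to day 21, so that its fall came after the endoderm stage. HNRNPA2B1 was at the maximum of 18734 at day 0, then at 4855, 3860, 3860, 3428, 2968, 2968, 2968, 2796 and 1434. HNRNPA1 was at the maximum from day 0 to day 5 and then at 6496, 4858, 4858, 6496 and 2798. Scores at the maximum cannot show changes above it, and the repeated values are steps of the shared scale, so that the course of HNRNPA1 before day 7 is not visible. The gaps between bands are wide there, as in the step of HNRNPA1 from 18734 to 6496. The log2 differences of HNRNPA1 and HNRNPA2B1 from the maximum therefore cannot be compared in size with those of genes at lower scores. The pluripotency markers were lower over the same days, with the medians given above, and their part in these differences was not tested. HNRNPA1 has near-identical processed copies, HNRNPA1L2 among them, between which reads may be split.

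**Figure D3:**
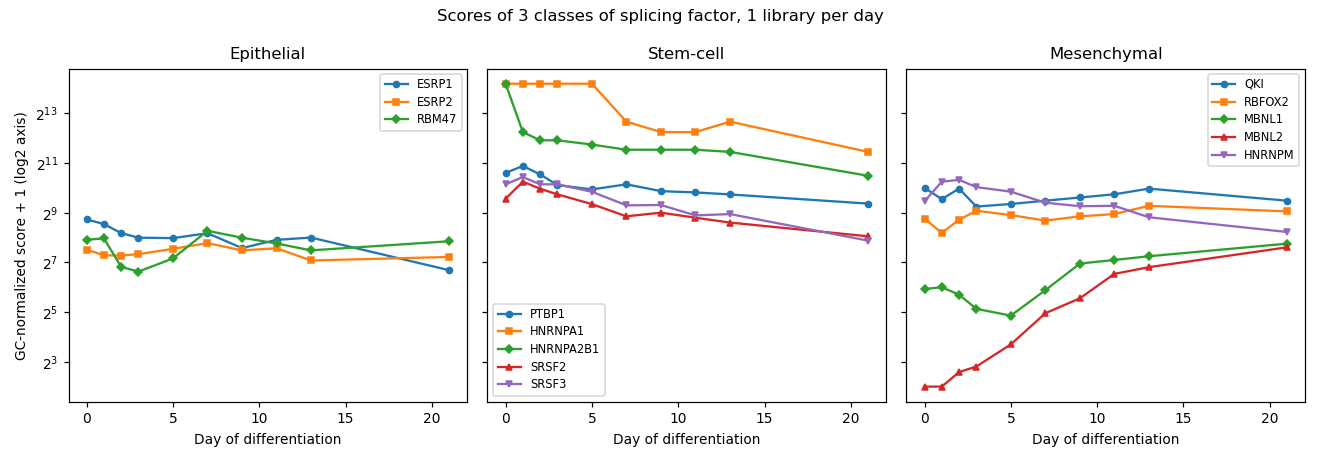
Scores plus 1, on a log2 axis, against the day for the epithelial, stem-cell and mesenchymal classes, 1 library per point. The stem-cell factors all end below their level of day 0, RBM47 is lowest at day 3, and MBNL1 and MBNL2 end above their level of day 0.

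The mesenchymal factors did not move as a group. QKI, a factor that governs exon choice and circular RNA formation in mesenchymal cells, had scores of 1024, 747, 1002, 607, 652, 715, 782, 855, 1002 and 715 in the order of the days. Its lowest score was at day 3, and its log2 differences were -0.75 from day 0 to day 3, 0.72 from day 3 to day 13 and -0.49 from day 13 to day 21, with no call. RBFOX2, which acts in stem cells and in mesenchymal cells, had scores of 434, 290, 420, 540, 478, 410, 462, 492, 620 and 530. It was lowest at day 1 and highest at day 13, and its log2 difference from day 0 to day 3 of 0.31 was not called. HNRNPM, which favours the mesenchymal form of CD44, had scores of 704, 1216, 1280, 1046, 920, 676, 613, 620, 450 and 298. It was highest at days 1 and 2, under Activin A, and fell from day 3 to day 13, with a log2 difference of -1.22. The median log2 difference from day 0 to day 3 was -0.74 for the epithelial class and -0.22 for the 4 mesenchymal genes tested. With MBNL2, whose scores of 3 and 6 were under the limit, the median over all 5 mesenchymal genes was 0.31. Within this class the sign of the median thus turns on MBNL2. MBNL3, called higher over these days with a log2 difference of 1.46, was not placed in the class. From day 3 to day 13 the 5 mesenchymal genes held 2 that rose, both MBNL, and 1 that fell, HNRNPM, with a median of 0.72.

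MBNL1, MBNL2 and MBNL3 all rose, at different times. These zinc finger proteins repress exons that are specific to embryonic stem cells, and their loss to RNA repeats underlies myotonic dystrophy. MBNL3 had scores of 30, 32, 68 and 84 on days 0 to 3, and of 300, 262, 318, 266, 264 and 278 from day 5 to day 21. Its scores were at most 84 up to day 3 and at least 262 afterwards, and its log2 differences were 1.46 from day 0 to day 3 and 1.64 from day 3 to day 13. MBNL2 had scores of 3, 3, 5, 6, 12, 30, 46, 92, 111 and 194 in the order of the days. No score of MBNL2 was below that of the day before. Its log2 difference from day 3 to day 13 was 4.00 and that from day 0 to day 21 was 5.61, which rests on low scores at the start and became 4.64 with a pseudocount of 5. MBNL1 had scores of 60, 63, 51, 34 and 28 on days 0 to 5, and of 58, 123, 136, 151 and 215 from day 7 on. It was lowest at day 5, when MBNL3 had already risen, and its log2 difference from day 3 to day 13 was 2.12.

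Stromal, endothelial and red cell markers also had higher scores on day 13 than on day 3, as the MBNL genes did. The stromal markers COL1A1, COL1A2, COL3A1, LUM, DCN and PDGFRB, all 6 in the table, had medians of log2(score + 1) of 4.93, 8.37, 12.08 and 12.29 on days 3, 7, 13 and 21. Single markers ranged from 0 to 8.61 on day 3, when LUM and DCN were at 0, and from 9.02 to 14.19 on day 21. Of the endothelial markers 3 of 4 were in the table, and their median was 6.48, 9.69 and 8.24 on days 3, 13 and 21. That of 4 red cell markers was 1.29, 8.01 and 7.29 on these days. On day 5, when MBNL3 had gone from 84 on day 3 to 300, the stromal, endothelial and red cell medians were 6.28, 5.43 and 1.95. CD68 and PTPRC, the 2 of 4 blood cell markers in the table, were both at 0 on day 3, and had scores of 259 and 65 on day 21. The part of these cells in the rise of the MBNL genes was not tested.

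**Figure D4:**
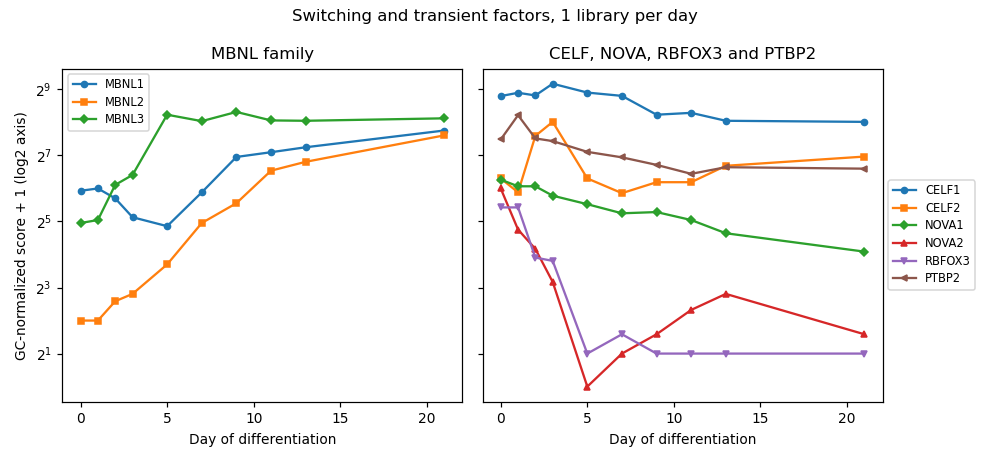
Scores plus 1, on a log2 axis, against the day, 1 library per point, for the MBNL genes (left) and for CELF1, CELF2, NOVA1, NOVA2, RBFOX3 and PTBP2 (right). MBNL3 steps up between days 3 and 5, before MBNL1, CELF2 peaks at day 3, and NOVA2 and RBFOX3 drop to near 0 by day 5.

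CELF2, which opposes MBNL proteins in muscle and heart and also acts in lymphocytes, peaked at the endoderm stage. Its scores were 78, 58, 192 and 258 on days 0 to 3, then 78, 57, 72, 72, 102 and 124. The scores of days 2 and 3 lay above those of all other days. CELF2 rose to day 3 with a log2 difference of 1.71 and fell from day 3 to day 13 with one of -1.33. MYL7, the marker of muscle and heart in the table (1 of 5 listed), had scores of 0, 57, 169, 162 and 24 on days 0, 2, 3, 5 and 7, and its part was not tested. CELF1, which is found in most cells, had scores between 444 and 576 up to day 7 and between 258 and 312 from day 9 on, and its log2 difference from day 3 to day 13 was -1.12. CELF3, CELF4, CELF5, CELF6 and RBFOX1 have no row in the table.

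Of the neuronal factors NOVA2 fell early and NOVA1 over the whole course. NOVA2 had scores of 63, 26, 17 and 8 on days 0 to 3, was at 0 at day 5 and lay between 1 and 6 afterwards. Its log2 difference from day 0 to day 3 was -2.83, and 0 of the later libraries reached the score of day 0. RBFOX3, known as the antigen NeuN of mature neurons, had scores of 42, 42, 14 and 13 on days 0 to 3 and of 1 or 2 from day 5 on, under the limit of 50 throughout. NOVA1 had scores of 76, 66, 66, 54, 45, 37, 38, 32, 24 and 16 in the order of the days. Its log2 difference over the whole course was -2.18. Of 5 neural markers listed 2 were in the table, with scores on days 0, 3 and 21 of 57, 24 and 35 for MAP2 and of 5, 163 and 120 for STMN2, and their part was not tested. PTBP2, the neural paralogue of PTBP1, had its highest score of 297 at day 1 and scores between 86 and 104 from day 9 on. PTBP3 fell from 546 to 164 over the course, a log2 difference of -1.73.

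The SR and SR-like genes divided into genes that fell and genes that did not pass 2-fold. Of the 12 tested between day 0 and day 21, 6 fell (SRSF1, SRSF2, SRSF3, SRSF7, SRSF10 and TRA2B) and 0 rose. Over all genes tested, 26.4% were lower and 23.9% higher. SRSF7 had scores of 497, 463, 284 and 124 on days 0, 3, 13 and 21, a log2 difference of -1.99 over the course. SRSF1, the founding SR protein, had 650, 582, 362 and 245, a difference of -1.40. TRA2B, a partner of SR proteins in exon inclusion, had 590, 612, 392 and 244, a difference of -1.27, while its paralogue TRA2A had 201, 188, 146 and 126, a difference of -0.67. SRSF4, SRSF5, SRSF6 and SRSF11 had scores at day 21 above those of day 0. SRSF5 had scores of 404, 501, 470, 512, 517, 612, 756, 712, 901 and 733 in the order of the days. It differed from day 0 by 0.86 at day 21, and by 1.05 after rescaling by the median of ratios, where it passed 2-fold. SRSF10 had a difference of -1.09, and of -0.90 after rescaling, where it no longer passed. SRSF6 stayed between 386 and 497 and SRSF4 between 198 and 274 in all libraries.

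**Figure D5:**
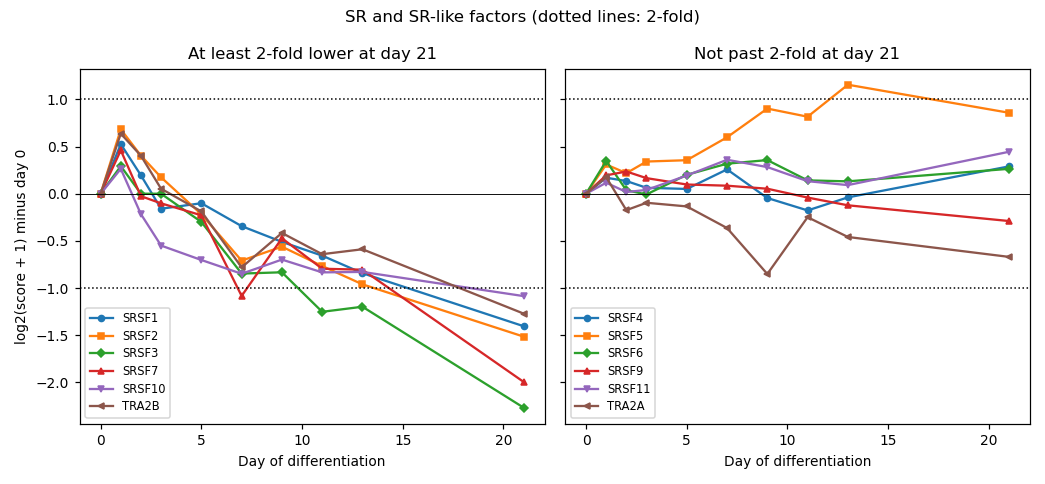
Difference of log2(score + 1) from day 0 against the day, 1 library per point, for the 6 SR and SR-like genes at least 2-fold lower at day 21 (left) and the other 6 tested (right). All 6 genes on the left are above 0 at day 1 and below -1 at day 21, and SRSF5 on the right crosses 1 at day 13.

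Among the hnRNP genes, 11 of 18 tested fell from day 0 to day 21 and 0 rose, with a median log2 difference of -1.19. Over all genes tested, 26.4% were lower and 23.9% higher, with a median of -0.11. HNRNPAB, a binder of AU-rich RNA and of single-stranded DNA, had scores of 1434, 1384, 1156, 919, 804, 744, 518, 418, 240 and 142. Every score was below that of the day before, and the log2 difference from day 0 to day 21 was -3.33. HNRNPD, which also binds AU-rich elements, had scores of 2022, 1888, 620 and 404 on days 0, 3, 13 and 21. HNRNPL, which binds CA-rich RNA, had 1638, 1088, 544 and 356. Their log2 differences from day 0 to day 21 were -2.32 and -2.20. HNRNPC, a binder of uridine tracts that guards against the use of cryptic exons, had 4855, 2426, 2020 and 1130 on the same days, and its fall from day 0 to day 3 only just reached the limit. It was not called after rescaling or with a pseudocount of 5. HNRNPR, HNRNPA3, HNRNPK and HNRNPH3 were also lower at day 21, with log2 differences of -1.82, -1.44, -1.13 and -1.14. After rescaling HNRNPK and HNRNPH3 were at -0.94 and -0.96 and no longer passed. HNRNPH3 reached this earlier, with scores of 744 at day 0 and 339 at day 3 and then between 300 and 504.

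Not all hnRNP genes fell. HNRNPH1, which binds runs of guanosine, had the same score of 1066 at days 0 and 21, with scores between 790 and 1390 in the other libraries. Its close relative HNRNPH2 had scores of 186, 305 and 179 on days 0, 3 and 21. HNRNPUL2 had 442 and 431 and HNRNPUL1 628 and 497 at days 0 and 21. HNRNPU, a protein of the nuclear scaffold, had 1490 and 934, HNRNPF 804 and 482 and HNRNPA0 703 and 387, with log2 differences of -0.67, -0.74 and -0.86 that did not pass 2-fold. HNRNPU-AS1 had scores of 258 and 70 on days 0 and 1 and lay between 65 and 154 afterwards. After rescaling its difference from day 0 to day 21 was -0.82 and no longer passed. Use of strand in the counting is not given in the sources used here, so reads of overlapping transcripts may not be separated. By the coordinates given, HNRNPU-AS1 (245003940 to 245010205 of chromosome 1) does not overlap HNRNPU (245014468 to 245027844). Both are listed on the minus strand, so these coordinates do not bear out the name of an antisense RNA.

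Promoter sequences are shown for HNRNPAB and SRSF3, chosen after their values were seen, as members with a large fall and a pair of CCAAT boxes. The CCAAT box, searched on both strands in the 250 bases before each start, was in 14 of 27 windows of the 19 falling members found (51.9%), in 30 of 89 windows of all members found (33.7%) and in 33.0% of the 12979 windows of genes of the table. A gene can have several windows, and there were 27 for the 19 falling members but 89 for the 41 members found. These shares of windows are therefore not shares of genes. Members that did not fall, such as CELF1, HNRNPU and MBNL2, also had the box. The falling members were chosen by their scores, so their share is a description with no test. The E-box CACGTG, the element of MYC, was in 4 of the 27 windows (14.8%) and in 8.01% of the windows of genes of the table. The sequences lie outside annotated exons, with the CCAAT boxes in capitals. That of HNRNPAB is chr5:178204283-178204506 on the plus strand of GRCh38.p14, with boxes at positions -118 and -75. That of SRSF3 is chr6:36594112-36594352 on the plus strand, with boxes at positions -70 and -55, the former on the other strand.
HNRNPAB: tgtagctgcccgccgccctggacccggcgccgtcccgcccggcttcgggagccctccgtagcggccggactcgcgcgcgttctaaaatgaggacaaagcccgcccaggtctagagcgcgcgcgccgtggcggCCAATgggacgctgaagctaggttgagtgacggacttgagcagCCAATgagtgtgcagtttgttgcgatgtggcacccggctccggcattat
SRSF3: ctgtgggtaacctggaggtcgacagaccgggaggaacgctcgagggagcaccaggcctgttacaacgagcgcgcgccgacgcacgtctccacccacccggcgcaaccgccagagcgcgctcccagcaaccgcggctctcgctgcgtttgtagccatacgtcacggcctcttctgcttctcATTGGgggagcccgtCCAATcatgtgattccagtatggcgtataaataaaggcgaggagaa

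The other genes of the splicing machinery gave a background for the members, from lists of 72 core spliceosome genes, 56 other splicing regulators and 9 kinases of SR proteins. Of 68 core spliceosome genes tested between day 0 and day 21, 39 were lower and 0 higher, with a median log2 difference of -1.21. Of 46 other regulators tested, 17 were lower and 1 higher, with a median of -0.53. Of 8 kinases, 1 was lower and 2 were higher, with a median of 0.28. Over all genes tested between these days the shares were 26.4% lower and 23.9% higher. For the kinases the share that was higher, 25%, was near that of all genes. The share of core genes that fell, 57.4%, lay between those of the SR genes (50%) and the hnRNP genes (61.1%), and no test sets these lists apart. From day 0 to day 3, 0 of the 69 core genes tested were lower and 3 higher, against 9.07% and 11.1% of all genes tested.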

How the data were processed

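The data are RNA-seq libraries of 10 days. Reads were aligned by the authors with Bowtie2 2.2.0 to a transcriptome they name Ensembl v76 (written as mm10, although the identifiers are human), quantified with RSEM 1.2.17 and corrected for GC content in EDASeq 2.0.0. The deposited values are scores in whole numbers, not read counts. The study's methods give an average depth only, and the depth of each library is unknown. Columns were matched to samples by day, and 0 columns were left over. Differences are of log2(score + 1), taken over all 12125 genes. The call needed a difference of 1 or more and a score of 50 or more in either library. With 1 library per day no test was run.

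The members, gene lists and classes were chosen with earlier results of these data known. Named were all genes of the 3 classes, members called in any of the 4 comparisons, others by range, and for 4 genes the 3 with the most similar course. Marker genes are named beside the results they accompany, chosen after their values were seen. Alternatives were pseudocounts of 0.1 and 5, rescaling by the median of ratios, other filters, a 4-fold limit, and leaving out genes at the shared top levels. Promoter windows were RefSeq entries for GRCh38.p14, matched by symbol for 41 of 50 members, with exons from GENCODE 29. The code of the call rule was checked on 4-fold changes planted in scores without noise. Their recovery was fixed in advance and does not measure error in these data. Python 3.11.15, numpy 2.4.6, pandas 2.3.3 and matplotlib 3.10.9 were used.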

Additional observations from a re-analysis of the deposited data

How the results depend on the processing

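With 1 library per day no value has a replicate error, and scores that act like ranks limit what the highest genes can show. The 8 counts that moved by more than 1.5 times were these. With a larger score of at least 200, 1 member was higher from day 0 to day 3 and 1 from day 3 to day 13. With a 4-fold limit, 0 members were higher and 2 lower from day 0 to day 3, 0 were lower from day 3 to day 13, 0 from day 13 to day 21, and 10 from day 0 to day 21. Without genes at the shared top levels, 3 were lower from day 0 to day 3. The other 124 of 132 counts and medians stayed within 1.5 times or within 0.29 log2 units, the standard deviation of the members between days 9 and 11. The 132 include the counts between days 9 and 11. A count cannot change sign, so reversal was not assessed for counts. Of 384 log2 differences of 32 named genes under other pseudocounts or the rescaling, 9 moved by more than this, all of MBNL2 or NOVA2 with another pseudocount. Leaving out the antisense RNAs and HNRNPA1L2, and the counts among genes of high score, were chosen after seeing the data. No paired analysis was possible because each day has 1 library and no comparison comes from a test.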

Other observations

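The genes whose course was most like that of each of 4 members were found by the Pearson correlation of log2(score + 1) over the 10 days, among 10746 genes that reach a score of 50. The libraries are successive days of differentiation of 1 cell line, so that many genes can share a trend, and the correlations are descriptions. For ESRP1 they were RSL1D1 (0.97), EIF3M (0.97) and NOL11 (0.96), with roles in ribosome biogenesis and translation initiation. RSL1D1 had scores of 528, 354, 299 and 144 on days 0, 3, 13 and 21. For RBM47 they were FGD1 (0.94), MMD (0.92) and HOMER3 (0.91), for ESRP2 they were CRKL (0.95), ABTB2 (0.94) and LMTK3 (0.88), and for QKI they were C22orf39 (0.96), EIF2D (0.90) and COTL1 (0.87). MMD had scores of 116, 64, 102 and 120 on days 0, 3, 13 and 21.

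NOVA1-AS1, listed beside NOVA1 on chromosome 14, was at 4 or 0 up to day 3, at 35 and 32 on days 5 and 7, and at 3 or 0 afterwards. All its scores lay under 50.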
